A study of Mus musculus with 6 samples.

Results

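The interferon-stimulated genes are the genes that cells switch on when an interferon reaches them. A set of 40 of them was chosen by name, with earlier results of these data known. All 40 were found among the 31053 genes of the deposited tables. They were followed in single-cell RNA-seq of stromal vascular cells from the inguinal white adipose tissue (iWAT, the subcutaneous fat pad at the groin) of male C57BL/6 mice. CD45+ immune cells had been removed by flow sorting and the inguinal lymph node had been taken out. There were 6 libraries, 1 for each combination of 2 ages (young, 9 weeks; aged, 57 weeks) and 3 housing conditions. All mice had first spent 3 weeks at 30 °C, and they then stayed at 30 °C (thermoneutrality, TN) or were kept at 6 °C for the last 3 days (3D cold) or for 14 days (14D cold). How many mice went into a library is not given in the sources used here. With 1 library per condition, library and condition cannot be told apart, and each p-value measures the spread between these libraries.

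Interferons act through cell surface receptors whose kinases activate STAT proteins. Genes that answer type I interferons often carry an interferon-stimulated response element (ISRE) in the promoter, where STAT2 and IRF9 act, and genes that answer interferon-gamma often carry a gamma-activated site (GAS). The induced proteins sense foreign nucleic acids, block steps of viral growth, attack vacuoles that hold pathogens, tag proteins, and call in lymphocytes. Stromal fibroblasts and vessel cells carry the receptors as well as immune cells.

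The cells were sorted into classes by marker genes, none of them a member. Of 57326 cells kept, 20621 were Dpp4+ fibroblasts (interstitial progenitors), 16687 Icam1+ preadipocytes (committed progenitors), 5062 Cd142+ fibroblasts, 4241 endothelial cells and 936 mural cells (pericytes and smooth muscle). Dpp4, Icam1 and F3 (which encodes CD142) were kept out of the marker lists to check the names. Mean Dpp4 was 509 CPM (UMI counts scaled to the UMIs of a class in a library) in Dpp4+ fibroblasts against 27.2 in Icam1+ preadipocytes, and F3 was 185 CPM in Cd142+ fibroblasts against 48.1 or less in the other 4 classes. Icam1 was highest in Icam1+ preadipocytes (486 CPM) but also high in Cd142+ fibroblasts (344 CPM) and endothelial cells (316 CPM). The boundary between fibroblast subsets is a graded one: 6.78% of the 48777 fibroblasts led their second-best subset by less than 0.1 in mean scaled log level of the markers. They and fibroblasts led by a weak Cd142 score, 6407 cells in all, were set aside.

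RefSeq promoters (GRCm38.p6, 250 bases before to 50 bases after the transcription start) were found for 31 of the 40 genes. Dhx58, Zbp1, Ly6e, Rtp4, Parp14, Usp18, Iigp1, Ifi27 and Ifi27l2a had none in the table. The ISRE core (GAAA, any 2 bases, GAAA), searched on both strands, was found in 19 of the 31 genes (61.3%) and in 3.99% of the 27025 genes with a promoter. The GAS core (TTC, any 3 bases, GAA), which reads the same on both strands, was found in 9 of the 31 genes (29.0%) and in 9.55% of all genes. A letter match describes the sequence and is not a measured binding site.

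Of the 7 genes that passed for both age and temperature in some class, 5 had a promoter in the table, and these 5 are printed, with Ifit3b, which passed for age alone, beside its neighbour Ifit3. Capitals mark each match to the ISRE core. Ifit3 and Ifit3b are neighbouring genes on chr19, of a family in which some products bind foreign RNA. Each holds a pair of matches, and their promoters share an unbroken run of 169 bases. The promoter of Cxcl10, which encodes a chemokine that attracts T cells, holds 1 match, and so does that of Gbp2, a guanylate-binding protein. The promoters of Oasl2, of the oligoadenylate synthetase family, and Ifi47, an immunity-related GTPase, hold no match to either core. The windows lie at chr19:34583279-34583578 (plus strand), chr19:34607707-34608006 (plus), chr5:92348840-92349139 (minus), chr3:142620413-142620712 (plus), chr5:114896684-114896983 (plus) and chr11:49076337-49076636 (plus), and all are written 5′ to 3′ on the strand of the gene.
Ifit3: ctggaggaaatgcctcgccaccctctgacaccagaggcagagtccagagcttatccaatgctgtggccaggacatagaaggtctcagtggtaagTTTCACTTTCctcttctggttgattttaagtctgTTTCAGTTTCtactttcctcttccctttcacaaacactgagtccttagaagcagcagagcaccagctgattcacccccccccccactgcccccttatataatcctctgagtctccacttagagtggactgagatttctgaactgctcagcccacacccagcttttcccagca
Ifit3b: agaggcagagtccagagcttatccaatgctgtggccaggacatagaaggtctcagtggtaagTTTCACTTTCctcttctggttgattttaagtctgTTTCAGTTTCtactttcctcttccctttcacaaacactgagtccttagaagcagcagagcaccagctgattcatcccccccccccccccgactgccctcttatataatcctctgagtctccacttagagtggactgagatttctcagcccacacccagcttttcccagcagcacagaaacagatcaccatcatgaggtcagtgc
Cxcl10: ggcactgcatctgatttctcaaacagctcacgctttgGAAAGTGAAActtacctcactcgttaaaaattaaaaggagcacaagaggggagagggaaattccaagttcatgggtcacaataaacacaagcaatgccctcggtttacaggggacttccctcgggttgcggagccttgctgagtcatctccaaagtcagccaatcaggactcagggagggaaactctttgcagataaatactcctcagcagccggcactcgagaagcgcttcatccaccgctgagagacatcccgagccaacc
Gbp2: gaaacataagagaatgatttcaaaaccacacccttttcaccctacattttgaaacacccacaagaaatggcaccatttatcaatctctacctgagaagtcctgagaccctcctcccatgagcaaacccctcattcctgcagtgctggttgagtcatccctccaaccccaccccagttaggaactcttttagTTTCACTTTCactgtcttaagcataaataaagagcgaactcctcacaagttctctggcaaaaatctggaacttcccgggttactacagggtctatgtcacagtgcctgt
Oasl2: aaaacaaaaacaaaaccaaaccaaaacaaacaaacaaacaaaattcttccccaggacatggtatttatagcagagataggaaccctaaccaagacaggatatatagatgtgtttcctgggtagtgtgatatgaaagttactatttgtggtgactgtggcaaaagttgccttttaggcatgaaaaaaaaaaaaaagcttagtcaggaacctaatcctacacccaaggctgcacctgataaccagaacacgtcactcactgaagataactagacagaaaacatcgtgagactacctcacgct
Ifi47: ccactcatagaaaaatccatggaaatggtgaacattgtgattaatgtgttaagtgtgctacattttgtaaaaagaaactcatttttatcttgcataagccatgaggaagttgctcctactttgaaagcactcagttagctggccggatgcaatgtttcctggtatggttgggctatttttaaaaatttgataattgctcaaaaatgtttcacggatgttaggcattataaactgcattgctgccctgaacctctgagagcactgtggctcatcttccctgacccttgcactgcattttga

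The libraries held 52068837 to 88508349 UMIs (unique molecular identifiers, each a counted transcript). Aged 14D cold was the shallowest, with a median of 2741.5 UMIs per kept cell against 6726 to 9904 in the others. Any pair of libraries shared 0.379% or fewer of its barcodes. The markers of immune cells were close to absent from the 5 classes: the 10 immune markers summed to 2.15 to 50.6 CPM in a library and class, and to 14223 CPM or more in the 328 immune cells. The 10 macrophage genes were at 12.9 to 19.3 CPM in young and at 21.0 to 31.4 CPM in aged Icam1+ libraries, against 2678 CPM or more in immune cells. Endothelial and mural marker RNA inside the fibroblast classes had a higher aged mean for 7 to 10 of 10 genes each. Both sums were highest in aged 14D cold in every fibroblast class. At TN, 3D and 14D, mural markers in Dpp4+ fibroblasts summed to 18.4, 17.9 and 17.1 CPM in young and 14.2, 11.7 and 39.4 CPM in aged libraries. Endothelial markers in Icam1+ preadipocytes summed to 45.3, 45.3 and 43.6 against 56.4, 45.4 and 91.5 CPM. The part of this RNA in the results was not tested.

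The level of the interferon-stimulated genes depended strongly on the cell class. The 3′ assay counts transcripts, so CPM can be compared between genes without a length term. Ifitm3, which blocks virus entry by hindering membrane fusion, was the most abundant member and held 33.2% of all member UMIs, with Ifi27l2a (13.9%) and Ly6e (7.97%) next. Ifi27l2a encodes a small hydrophobic membrane protein, and Ly6e a lipid-anchored surface protein. Ifitm3 ran at 1408 to 1743 CPM in Dpp4+ fibroblasts and at 1958 to 2486 CPM in endothelial cells, a narrow range over the classes.

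**Figure D1:**
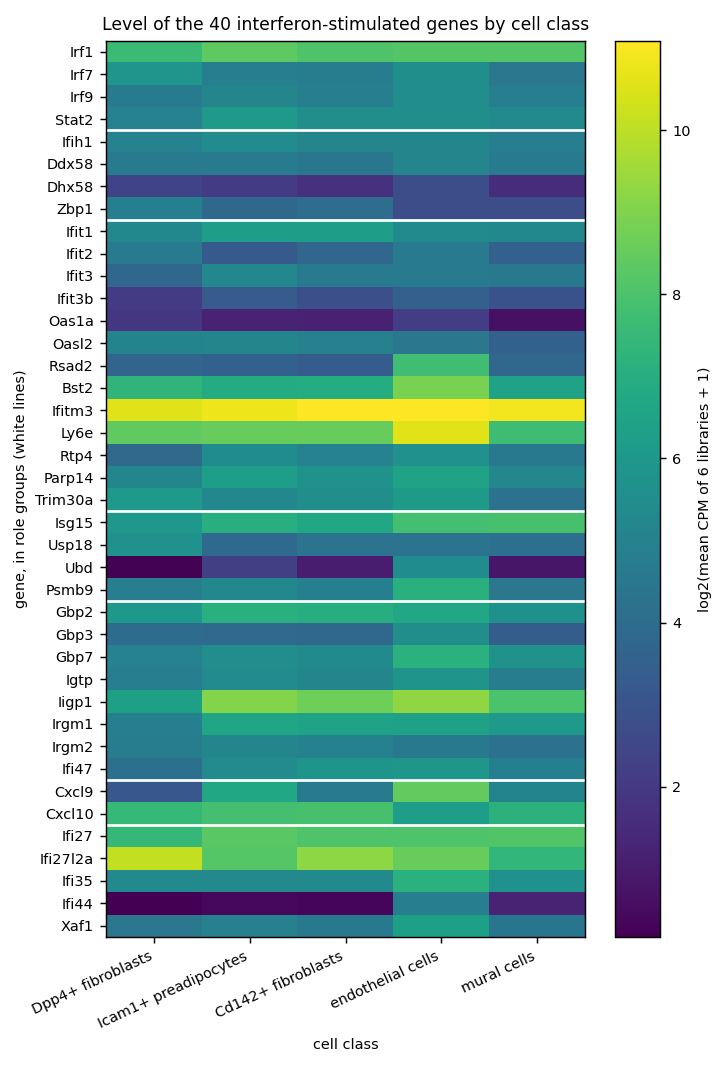
Mean level of each gene over the 6 libraries (colour, log2 of CPM plus 1) in 5 cell classes (columns), with genes in rows by role. Ifitm3 is bright in every column, while Ubd, Ifi44, Rsad2 and Cxcl9 are bright in endothelial cells and dim in Dpp4+ fibroblasts.

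Endothelial cells had the highest summed level of the 40 genes, though not the highest level of each gene. They were not tested against Icam1+ preadipocytes. Against Dpp4+ fibroblasts of the same libraries, 27 of the 40 genes were higher and 7 were lower in endothelial cells (36.2% and 38.6% of all genes; edgeR quasi-likelihood test with the library as a block, Benjamini-Hochberg adjusted p under 0.05 over all genes); so many genes differ between classes that 74.7% of all genes passed this test. Cxcl9, a chemokine that like Cxcl10 binds CXCR3 on T cells, was at 405, 315 and 409 CPM in the young libraries and 318, 359.7 and 341 CPM in the aged libraries, in the order TN, 3D and 14D used throughout. In Dpp4+ fibroblasts Cxcl9 was at 4.16 to 11.2 CPM, a log2 difference of 5.35 ± 0.23 (SE; adjusted p = 5.27e-08). Every endothelial library was far above every Dpp4+ library.

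Rsad2, the antiviral enzyme viperin, followed the same order, with 185 to 255 CPM in endothelial cells and 7.76 to 17.9 CPM in Dpp4+ fibroblasts (log2 difference 3.91 ± 0.16, adjusted p = 2.92e-08). Ubd, which encodes the ubiquitin-like modifier FAT10, was at 12.3 to 79.6 CPM and at 0 to 0.457 CPM. Neither gene overlapped between those classes. Ubd had UMIs too few for a fold against Dpp4+ fibroblasts to be read. The tethering protein gene Bst2 (1.33 ± 0.12), the immunoproteasome subunit gene Psmb9 (2.08 ± 0.08), Ly6e (1.97 ± 0.09) and Gbp7 (1.97 ± 0.09) were also higher in endothelial cells. Of the 7 lower genes, Zbp1, a sensor of Z-form nucleic acid, differed by -2.55 ± 0.15 on the log2 scale, Ifi27l2a by -1.85 ± 0.34 and Cxcl10 by -1.64 ± 0.28, each with an adjusted p of 0.000812 or less.

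In Icam1+ preadipocytes 24 members were higher and 9 lower of 39 tested than in Dpp4+ fibroblasts (33.9% and 34.8% of all genes, 68.7% in all). Of the 8 guanylate-binding proteins and immunity-related GTPases, which act on pathogen vacuoles, 7 were higher, and Gbp3 did not pass (-0.09 ± 0.12). Iigp1 was at 335 to 719 CPM against 60.2 to 118 CPM, a log2 difference of 2.76 ± 0.11 (adjusted p = 6.10e-08), and Irgm1 and Ifi47 were higher by 1.83 ± 0.15 and 1.36 ± 0.21. Cxcl9 was higher by 3.74 ± 0.33. Ifi27l2a (-2.04 ± 0.19), Usp18, which strips ISG15 from proteins and brakes the receptor (-1.82 ± 0.10), Ifit2 (-1.48 ± 0.07) and Irf7, a transcription factor that amplifies type I interferon (-1.0 ± 0.06), were lower. In Cd142+ fibroblasts 23 genes were higher and 10 lower of 38 than in Dpp4+ fibroblasts (28.2% and 27.1% of all genes, 55.3% in all). Of the 8 guanylate-binding proteins and immunity-related GTPases 7 were higher there too, as were 7 of 8 in endothelial cells. Mural cells had the most members below Dpp4+ fibroblasts, with 5 higher and 17 lower of 38 (25.9% and 30.8% of all genes, 56.7% in all); Isg15, the ubiquitin-like modifier ISG15 (1.62 ± 0.17), and Iigp1 (1.33 ± 0.15) were among the 5.

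Age was compared over the 3 housing conditions, with temperature as a term in the fit, so each age had 3 libraries and the fit 2 residual degrees of freedom. Of the 40 genes, 13 differed with age in at least 1 class. By class, 0.219% (mural cells) to 16.3% (Dpp4+ fibroblasts) of all genes passed, and the share of all genes passing in any class was not counted. Icam1+ preadipocytes had the most age calls: of 39 genes tested, 10 fell and none rose, beside 4.22% of all genes that fell, 5.73% that rose and 9.95% that passed in either direction. Of the 39 log2 fold changes 32 were negative, with a median of -0.24 against -0.0028 over all genes tested. The ages did not overlap in 8 of 39 members, all lower in aged, and in 22.1% of all genes.

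**Figure D2:**
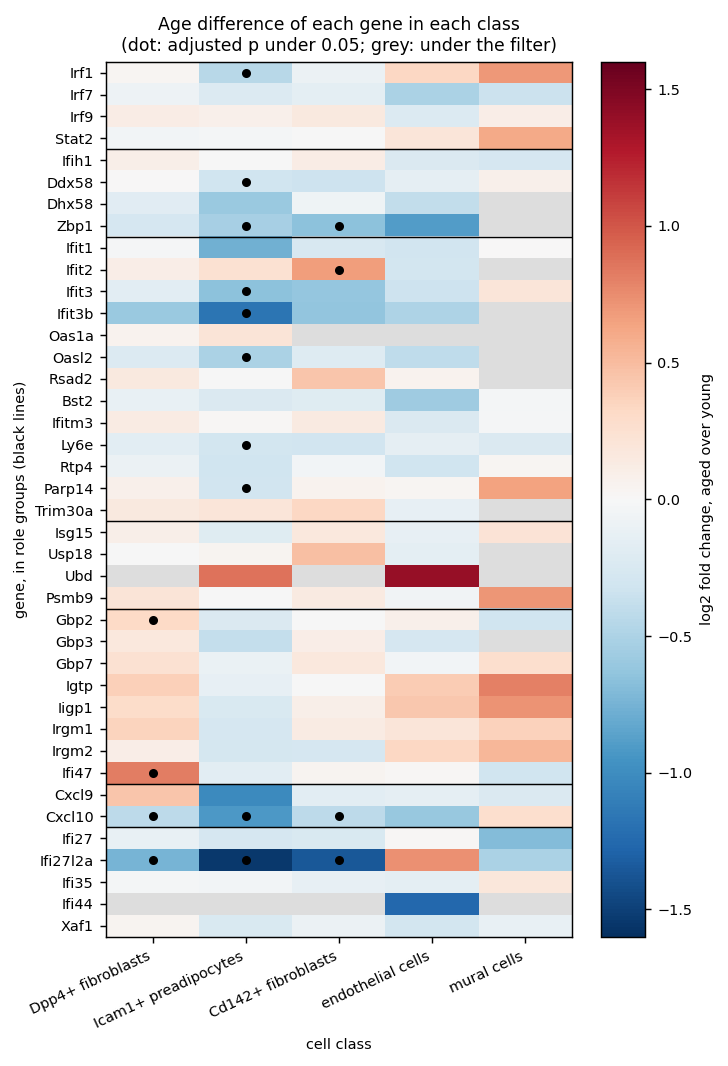
Log2 fold change of aged over young libraries (colour; red higher in aged, blue lower) for each gene (rows, by role) in 5 cell classes (columns); dots mark an adjusted p under 0.05 and grey cells had too few UMIs. The Icam1+ column holds 10 dots, all blue, and Ifi27l2a is blue with a dot in all 3 fibroblast classes.

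Ifi27l2a (chr12:103442167-103443680, GRCm38) had the largest fall of the genes called. In Icam1+ preadipocytes it was at 497, 239.9 and 612 CPM in the young libraries and 109, 129 and 211 CPM in the aged libraries, so every aged library was below every young one, and the log2 fold change was -1.54 ± 0.21 (SE; adjusted p = 0.00752). In Cd142+ fibroblasts it was at 1182, 464 and 987 CPM in the young libraries and 259.5, 263 and 471 CPM in the aged libraries (-1.35 ± 0.21, adjusted p = 0.00467), where the aged 14D cold library slightly exceeded the young 3D cold one. In Dpp4+ fibroblasts, where the gene is highest, it was at 1552, 1069 and 1524 CPM in the young libraries and 833, 712 and 904 CPM in the aged libraries (-0.75 ± 0.07, adjusted p = 1.25e-04), again with no overlap. The fall in Dpp4+ fibroblasts stayed past the threshold in 14 of 14 alternative analyses, and those in Icam1+ preadipocytes and Cd142+ fibroblasts in 13 of 14. In these and later counts for age, omitting either library of a temperature gives nearly the same comparison. The library left is fitted by its own temperature term, so the alternatives are not independent. Later counts of members passing under an alternative stand without the share of all genes. A change in such a count is not a result about the members. In the Icam1+ class the summed markers of the Dpp4+ subset were at 783 to 1126 CPM in young and at 661 to 1068 CPM in aged libraries, with all 10 means lower in aged; their part in the fall was not tested.

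Among the effectors that bind viral RNA or act on virus, 5 of 13 fell in Icam1+ preadipocytes. Ifit3b was at 9.06, 14.1 and 13.4 CPM in the young libraries and 3.64, 7.18 and 5.51 CPM in the aged libraries (-1.17 ± 0.12, adjusted p = 0.00227), with no overlap between ages. Ifit3 was at 30.6, 57.5 and 45.8 CPM in the young libraries and 15.6, 37.8 and 34.7 CPM in the aged libraries (-0.65 ± 0.11, adjusted p = 0.0131), and here the aged 3D and 14D libraries exceeded the young TN library. The last 500 bases of Ifit3 and Ifit3b transcripts (GENCODE vM21) held no 60-base window in common, so 3′ reads can tell them apart. Oasl2 was at 29.2, 48.3 and 43.2 CPM in the young libraries and 17.9, 35.1 and 33.8 CPM in the aged libraries (-0.51 ± 0.08, adjusted p = 0.0138). Parp14, an ADP-ribosyltransferase, and Ly6e fell less (-0.31 ± 0.06, adjusted p = 0.0199, and -0.30 ± 0.06, adjusted p = 0.0347). Ly6e was at 417, 368 and 438 CPM in the young libraries and 327, 321 and 348 CPM in the aged libraries, with every aged library lower. Ifit1, at 58.8, 112 and 105 CPM in the young libraries and 20.3, 81.9 and 79.4 CPM in the aged libraries, had a larger fold change than Oasl2 but missed the threshold (-0.77 ± 0.20, adjusted p = 0.0576).

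Of the chemokine genes, Cxcl10 fell in aged Icam1+ preadipocytes and Cxcl9 just missed the threshold. Cxcl10 was at 259.6, 279.8 and 348 CPM in the young libraries and 90.6, 189 and 214 CPM in the aged libraries (-0.92 ± 0.17, adjusted p = 0.0195). Cxcl9 was at 107, 158 and 131 CPM in the young libraries and 27.1, 94.2 and 99.4 CPM in the aged libraries (-1.01 ± 0.26), and its adjusted p of 0.0545 missed the threshold although the ages did not overlap. The aged TN library was the lowest for both. Of the sensors, Zbp1 (-0.54 ± 0.10, adjusted p = 0.0221) and Ddx58, the RIG-I sensor of short double-stranded RNA (-0.32 ± 0.07, adjusted p = 0.0348), fell. Their CPM were 13, 17.8 and 16 in young and 7.77, 12.3 and 12.6 in aged libraries for Zbp1, and 28, 28.8 and 27.5 against 21.5, 23.9 and 22.4 for Ddx58. Both were lower in every aged library. Ifih1, the MDA5 sensor of long double-stranded RNA, did not pass (-0.00 ± 0.06). The transcription factor gene Irf1 fell (-0.45 ± 0.10, adjusted p = 0.0359), from 299, 457 and 404 to 242, 374 and 240.2 CPM, while Stat2 (-0.03), Irf9 (0.08) and Irf7 (-0.22) did not pass the test. Of the 10 calls, those of Ifi27l2a, Cxcl10 and Ifit3b held in 13 of 14 alternatives, Ifit3 in 11, Oasl2 and Zbp1 in 10, Irf1 in 9, Parp14 in 8, Ly6e in 7 and Ddx58 in 5. The Ddx58 call was lost under DESeq2, with cells thinned to 2000 UMIs and with any library omitted, and the Zbp1 change was -0.28 (adjusted p = 0.379) with thinned cells. The Icam1+ count of 10 became 3 when either 3D library, young or aged, was omitted, 17 with no filter on low counts, and 0 (at most 1 in any class) without the temperature term.

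**Figure D3:**
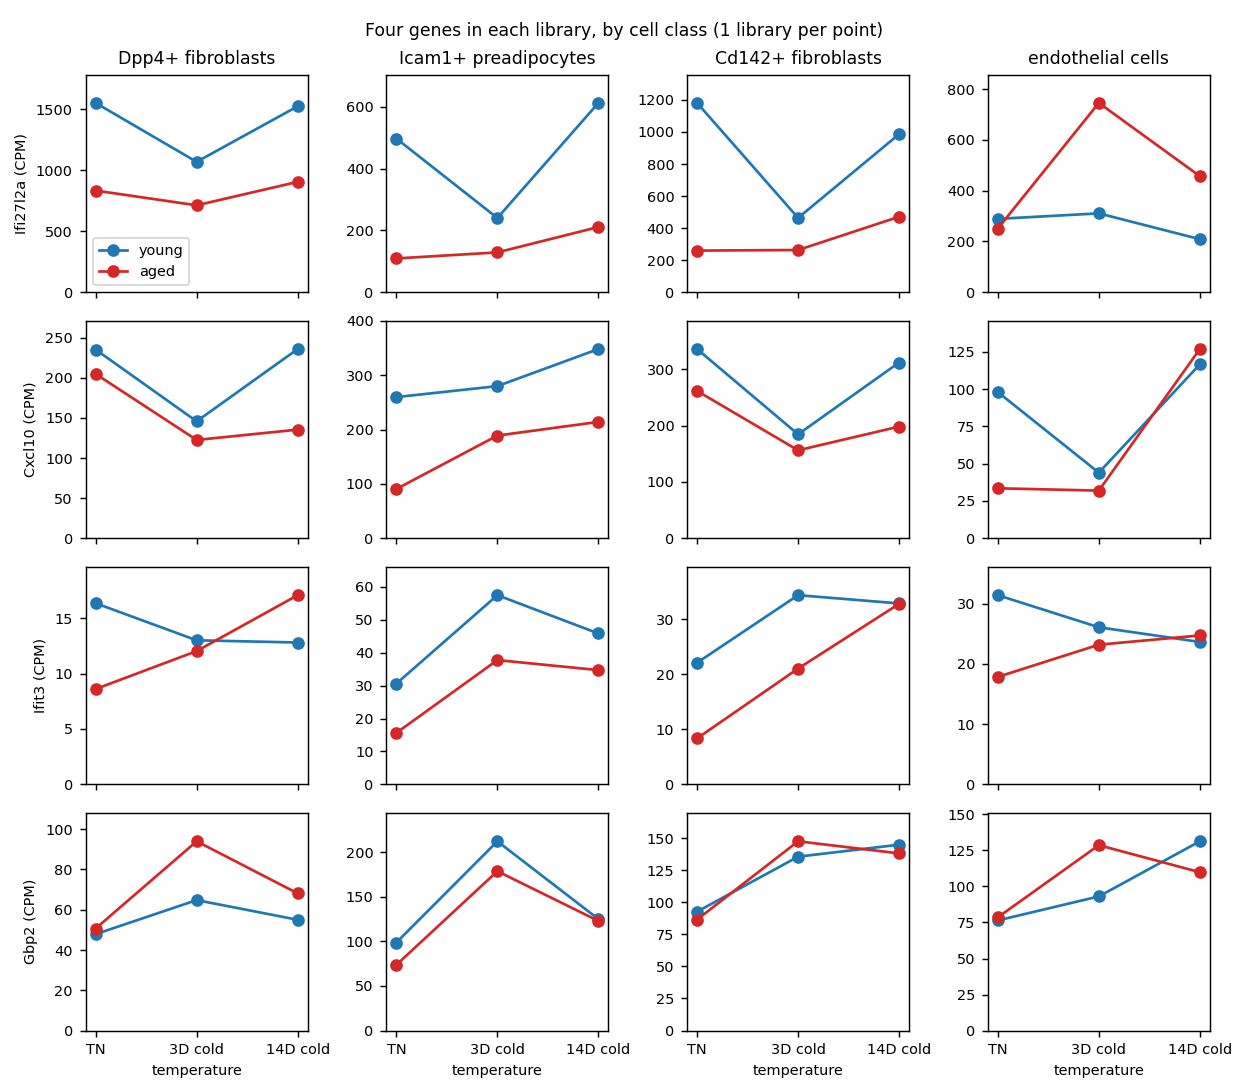
Level (CPM, linear axis from 0) of Ifi27l2a, Cxcl10, Ifit3 and Gbp2 (rows) in 4 cell classes (columns) at each temperature, with 1 library per point and blue for young, red for aged. The red line of Ifi27l2a lies below the blue one in the 3 fibroblast classes, whereas the aged line reaches 746 CPM in endothelial cells at 3D, and Gbp2 has its peak at 3D in both ages in Dpp4+ and Icam1+ cells.

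Dpp4+ fibroblasts showed a mixed pattern, with 2 genes higher and 2 lower in aged libraries of 38 tested (8.46% of all genes rose, 7.8% fell and 16.3% passed in all, so 4 of 38 is not above the background). Ifi47 was at 13.7, 13.2 and 10.6 CPM in the young libraries and 14.9, 30.4 and 21.7 CPM in the aged libraries (0.82 ± 0.16, adjusted p = 0.00827). Gbp2 was at 47.9, 64.8 and 55 CPM in the young libraries and 50.7, 94 and 68.1 CPM in the aged libraries (0.32 ± 0.08, adjusted p = 0.0256), and it was at 0.20 without the young 3D (adjusted p = 0.174) or the aged 3D library (0.188). All 8 guanylate-binding proteins and immunity-related GTPases had positive log2 fold changes in this class, from 0.11 to 0.82, and in Icam1+ preadipocytes all 8 were negative, from -0.39 to -0.11, none of those past the threshold. Cxcl10 fell, at 235, 146 and 236 CPM in the young libraries and 205, 123 and 135 CPM in the aged libraries (-0.42 ± 0.10, adjusted p = 0.0225), with the aged TN library above the young 3D one. The change was -0.23 without the young or the aged 14D library, still past the threshold, and DESeq2 did not call it (adjusted p = 0.276). In all, 3 of 38 members and 23.7% of all genes did not overlap between ages. RNA of other cells moved with age in this class. Of 7 tested genes of adipocytes and red cells, 6 rose. The 9 listed genes of those cells summed to 10.3, 168.8 and 12.2 CPM in young and 127.8, 648.7 and 349.7 CPM in aged libraries, and their part was not tested. The Ifi47 gene shares 20388 bases with Olfr56 on the same strand, and Igtp and Irgm2 overlap each other by 7974 bases, so counts of these genes are uncertain. Omitting the young or the aged TN library gave 12 genes each, and omitting the young or the aged 14D library gave 9 and 11. The count was 13 with no filter on low counts and 2 under DESeq2.

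In Cd142+ fibroblasts 1 gene rose and 3 fell of 37 tested, beside 3.49% and 3.4% of all genes (6.88% in all). The ages did not overlap for 3 of 37 members and 20.8% of all genes. Ifit2 was at 9.88, 11.6 and 7.46 CPM in the young libraries and 13.1, 18.8 and 14.5 CPM in the aged libraries (0.67 ± 0.16, adjusted p = 0.0336), with every aged library higher; it passed in 7 of 14 alternatives. Zbp1 was at 19.6, 17.5 and 20.5 CPM in the young libraries and 10.9, 12.6 and 12.6 CPM in the aged libraries (-0.66 ± 0.14, adjusted p = 0.0215), with every aged library lower. Cxcl10 was at 336, 184 and 312 CPM in the young libraries and 261, 156 and 198 CPM in the aged libraries (-0.42 ± 0.09, adjusted p = 0.0278), but with classes taken from clusters its change was 0.07. Both passed in fewer alternatives than Ifi27l2a, Cxcl10 in 9 of 14 and Zbp1 in 8, and Zbp1 was at -0.27 (adjusted p = 0.265) with classes from clusters. The count of 4 became 8 with no filter on low counts, 9 with classes from clusters, 2 with each cell thinned to 2000 UMIs, and 1 under DESeq2.

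In endothelial cells no gene passed for age of 39 tested with edgeR and none with DESeq2; 13 had an unadjusted p under 0.05, and 0.384% of all genes passed. The ages did not overlap for 10 of 39 members and 15.4% of all genes. The libraries are small here, with 1949166 to 4590805 UMIs each. Those with the largest log2 differences were Ubd, at 25.8, 12.3 and 31.7 CPM in the young libraries and 39, 79.6 and 71.4 CPM in the aged libraries (1.39 ± 0.29, adjusted p = 0.1), and Ifi44, at 41.3, 32.2 and 41.8 CPM in the young libraries and 27, 14 and 7.33 CPM in the aged libraries (-1.26 ± 0.29, adjusted p = 0.13). In both the ages did not overlap. Bst2 was at 561, 438 and 710.0 CPM in the young libraries and 406, 354 and 370.0 CPM in the aged libraries (-0.57 ± 0.12, adjusted p = 0.108). Ifi27l2a, which fell in the fibroblasts, was at 289, 310.4 and 209 CPM in the young libraries and 251, 746 and 457 CPM in the aged libraries (0.74 ± 0.24, adjusted p = 0.259), with the ages overlapping. Omitting the aged TN, 3D and 14D libraries gave 1, 5 and 6 genes, omitting the young TN, 3D and 14D libraries gave 0, 1 and 2, and 7 passed with no filter on low counts.

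In mural cells no gene passed for age of 28 tested with edgeR or with DESeq2, where 6 had an unadjusted p under 0.05 and 0.219% of all genes passed (5 of 28 members and 13% of all genes did not overlap between ages). Iigp1 came nearest, at 216, 155 and 209.9 CPM in the young libraries and 339, 284 and 334 CPM in the aged libraries (0.72 ± 0.14, adjusted p = 0.0551), with every aged library higher. Irf1 was at 193, 201 and 266 CPM in the young libraries and 359, 431 and 285 CPM in the aged libraries (0.69 ± 0.18, adjusted p = 0.187), and Ifi27 at 364, 312 and 335 CPM in the young libraries and 284, 142 and 209 CPM in the aged libraries (-0.69 ± 0.16, adjusted p = 0.128). The mural libraries held 458904 to 1157968 UMIs, so 12 of the 40 genes were under the filter. The 9 listed genes of adipocytes and red cells summed to 3839 CPM in aged TN and to 57.7 to 361 CPM in the others, and their part was not tested. Omitting the aged 14D, young 14D or young TN library gave 5, 2 and 1 genes, clusters gave 1, and 3 passed with no filter.

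Whether age acted unequally on the classes was tested directly, as the difference of the age effect between each class and Dpp4+ fibroblasts. None of the 40 genes passed in any of the 4 class pairs, so the class patterns are not shown to differ. For Ifi27l2a the difference was -0.78 ± 0.25 for Icam1+ preadipocytes (adjusted p = 0.208), -0.60 ± 0.20 for Cd142+ fibroblasts (0.246) and 1.49 ± 0.45 for endothelial cells (0.437). For Cxcl9 it was -1.38 ± 0.43 in Icam1+ preadipocytes (0.186), and for Ifi47 -0.93 ± 0.27 (0.169). The test does pass some genes, with 1.19% of all genes called for Icam1+ preadipocytes, 1.14% for Cd142+ fibroblasts, 0.179% for endothelial cells and 0.101% for mural cells.

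Temperature was compared with an F test over TN, 3D cold and 14D cold, with age as a term. Cold went with higher levels of the members in Icam1+ preadipocytes. There 10 of 39 genes passed, beside 2.24% of all genes, and all 10 were higher at both cold times. Counting direction alone, 36 of 39 log2 fold changes were positive at 3D and 37 at 14D, with medians of 0.60 and 0.40 against -0.01 and -0.01 over all genes. In Cd142+ fibroblasts 30 and 31 of 37 were positive, with medians of 0.30 and 0.32 (-0.0055 and -4.05e-05 over all genes). In Dpp4+ fibroblasts 22 and 25 of 38 were, with medians of 0.03 and 0.11. For endothelial cells it was 22 and 29 of 39, and for mural cells 17 and 21 of 28. The temperature effect was not tested between classes. In Icam1+ preadipocytes the lowest library was aged TN for 29 of 39 members (17.2% of all genes), and the highest was young 3D cold for 24 of 39 (11.5% of all genes). Aged TN was also the lowest for 18 of 38 members in Dpp4+ fibroblasts (16.5% of all genes) and 18 of 37 in Cd142+ fibroblasts (16.2%). It was the lowest for 7 of 39 in endothelial cells (11.7%) and 5 of 28 in mural cells (13.2%). This library enters both the age and the temperature comparison. RNA of other cells also moved with temperature in Icam1+ preadipocytes. All 8 tested genes of adipocytes and red cells had positive changes at both times (medians 3.16 at 3D and 2.27 at 14D); the 9 listed genes summed to 506 CPM in young 3D and 360.4 CPM in aged 14D but to 73.6 CPM or less in the other 4 libraries. The 10 endothelial markers summed to 91.5 CPM in aged 14D and to 43.6 to 56.4 CPM in the others (median change -0.07 at 3D and 1.82 at 14D), against 7050 CPM or more in endothelial cells. Their part in the result was not tested.

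**Figure D4:**
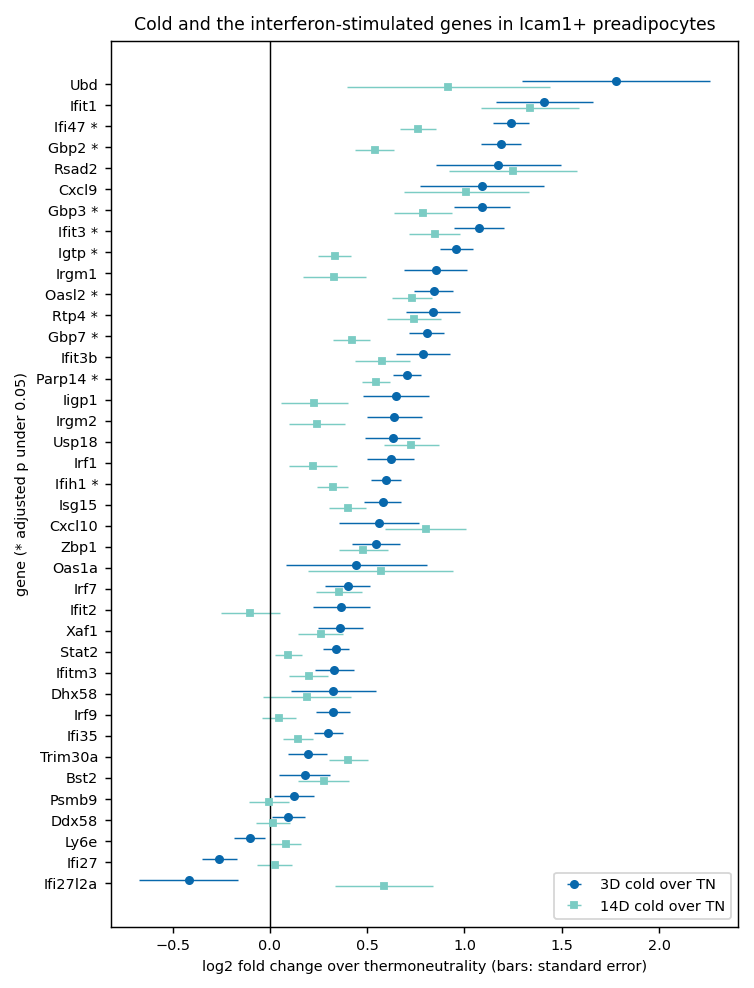
Log2 fold change of 3D cold (circles) and 14D cold (squares) over TN in Icam1+ preadipocytes, with standard errors, for the 39 genes tested, sorted by the 3D value; stars mark an adjusted p under 0.05. All but 3 circles and 2 squares lie to the right of 0, and the 10 starred genes lie between 0.60 and 1.24 at 3D.

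Of the guanylate-binding proteins and immunity-related GTPases, 5 of 8 rose with cold in Icam1+ preadipocytes. Gbp2 was at 98.7, 212 and 125 CPM in the young libraries and 73.7, 179 and 123 CPM in the aged libraries, a log2 change of 1.19 ± 0.10 at 3D and 0.54 ± 0.10 at 14D over TN (SE; adjusted p = 0.00978). Ifi47 was at 28.1, 60.5 and 44.2 CPM in the young libraries and 22.2, 57.9 and 40.8 CPM in the aged libraries (1.24 ± 0.09 at 3D and 0.76 ± 0.09 at 14D, adjusted p = 0.00757). Igtp was at 32.6, 58.8 and 38.9 CPM in the young libraries and 27.2, 57 and 36.3 CPM in the aged libraries (0.96 ± 0.08 at 3D and 0.33 ± 0.08 at 14D, adjusted p = 0.0096). In all of these the 3D libraries were the highest and the TN libraries the lowest at each age. Gbp3, at 10.9, 20.5 and 15.7 CPM in the young libraries and 6.62, 16.3 and 14.2 CPM in the aged libraries (1.09 ± 0.14 at 3D and 0.79 ± 0.15 at 14D, adjusted p = 0.0317), had the same order. So did Gbp7, at 35.3, 61.9 and 43.2 CPM in the young libraries and 30.9, 53.8 and 45.4 CPM in the aged libraries (0.80 ± 0.09 at 3D and 0.42 ± 0.09 at 14D, adjusted p = 0.0224). Irgm1, at 88.4, 152 and 85.9 CPM in the young libraries and 59.9, 115 and 97.3 CPM in the aged libraries, and Iigp1, at 529, 719 and 469 CPM in the young libraries and 335, 617 and 521 CPM in the aged libraries, were highest at 3D in both ages and did not pass (adjusted p = 0.0719 and 0.147).

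Of the effectors, 4 of 13 rose. Ifit3, with the values given above, changed by 1.07 ± 0.13 at 3D and 0.85 ± 0.13 at 14D (adjusted p = 0.0231) and Oasl2 by 0.84 ± 0.10 at 3D and 0.73 ± 0.10 at 14D (adjusted p = 0.0229). Parp14 was at 63.3, 101 and 93.1 CPM in the young libraries and 50.6, 84.2 and 73.2 CPM in the aged libraries (0.70 ± 0.07 at 3D and 0.55 ± 0.07 at 14D, adjusted p = 0.0143). Rtp4, a chaperone-like protein that restricts RNA viruses, was at 35.8, 60.6 and 48.5 CPM in the young libraries and 23.8, 45.5 and 49.5 CPM in the aged libraries (0.84 ± 0.14 at 3D and 0.74 ± 0.14 at 14D, adjusted p = 0.0487). The 14D changes of these 4 effectors were 0.55 or more. Ifit1 had the largest 3D change of the better-detected genes that missed the threshold (1.41 ± 0.25 at 3D and 1.34 ± 0.25 at 14D, adjusted p = 0.0554), beside Isg15, at 112, 163 and 131 CPM in the young libraries and 89.3, 137 and 133 CPM in the aged libraries (0.58 ± 0.10 at 3D and 0.40 ± 0.10 at 14D, adjusted p = 0.0554). The sensor gene Ifih1 rose, at 33.3, 53 and 41.3 CPM in the young libraries and 34.3, 49.3 and 43.3 CPM in the aged libraries (0.60 ± 0.08 at 3D and 0.32 ± 0.08 at 14D, adjusted p = 0.0317). Of the signal genes, Irf1, Stat2, Irf7 and Irf9 had 3D changes of 0.62, 0.34, 0.40 and 0.32, none past the threshold.

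The 3 members with a negative 3D change were Ifi27l2a, Ifi27 and Ly6e. Ifi27l2a changed by -0.42 ± 0.25 at 3D and 0.59 ± 0.25 at 14D, Ifi27 by -0.26 ± 0.09 at 3D and 0.03 ± 0.09 at 14D and Ly6e by -0.10 ± 0.08 at 3D and 0.08 ± 0.08 at 14D, with adjusted p-values of 0.139, 0.186 and 0.364. The markers of the Dpp4+ subset had a median change of 0.94 at 14D in this class, and its part was not tested. No member passed when either 3D library was omitted, while 20 passed when the aged 14D library was omitted, 24 for the young 14D and 28 for the young TN library. None passed without the age term, 16 did with classes from clusters and 28 with no filter on low counts. These counts, too, stand without the share of all genes.

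In the other fibroblasts Cxcl10 fell and Gbp2 rose with cold. Cxcl10 was lowest at 3D in Dpp4+ fibroblasts of both ages (-0.72 ± 0.13 at 3D and -0.28 ± 0.13 at 14D, adjusted p = 0.0245) and in Cd142+ fibroblasts of both ages (-0.80 ± 0.12 at 3D and -0.24 ± 0.12 at 14D, adjusted p = 0.0272). Gbp2 rose in Dpp4+ fibroblasts (0.66 ± 0.10 at 3D and 0.30 ± 0.10 at 14D, adjusted p = 0.0118) and in Cd142+ fibroblasts, where it was at 92.6, 136 and 145 CPM in the young libraries and 86.5, 147 and 138 CPM in the aged libraries (0.66 ± 0.10 at 3D and 0.66 ± 0.10 at 14D, adjusted p = 0.0241). So Gbp2 passed for temperature in all 3 fibroblast classes. Gbp3 rose in Dpp4+ fibroblasts, at 12.3, 15.7 and 15.1 CPM in the young libraries and 10.9, 19.9 and 18 CPM in the aged libraries (0.58 ± 0.12 at 3D and 0.47 ± 0.12 at 14D, adjusted p = 0.0427), and Ifi27l2a there was lower at 3D (-0.38 ± 0.09 at 3D and 0.04 ± 0.09 at 14D, adjusted p = 0.0376). In all, 4 of 38 genes passed in Dpp4+ fibroblasts (6.3% of all genes) and 2 of 37 in Cd142+ fibroblasts (1.03%). Omitting the young TN, 3D or 14D library gave 13, 9 and 11 genes in Dpp4+ fibroblasts and 9, 4 and 14 in Cd142+ fibroblasts. Omitting the aged 14D library gave 11 and 16, and omitting the aged 3D library gave 7 in Cd142+ fibroblasts. None of the 4 named Dpp4+ calls held without the aged TN library or without the age term, and that of Ifi27l2a held in 6 of 11 alternatives. In Cd142+ fibroblasts the Cxcl10 call was lost without the young 3D library.

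In endothelial cells no gene passed for temperature (1.94% of all genes did); 4 had an unadjusted p under 0.05, and DESeq2 passed none. Omitting the young 3D, young 14D, aged 3D or aged 14D library gave 2, 4, 5 and 6 genes. Cxcl10 came nearest, at 98, 44 and 117 CPM in the young libraries and 33.5, 31.9 and 127 CPM in the aged libraries (-0.67 ± 0.34 at 3D and 1.06 ± 0.30 at 14D, adjusted p = 0.0512), high at 14D in both ages. The 10 fibroblast markers in endothelial cells summed to 3350 CPM in young and 7938 CPM in aged 14D libraries against 1594 to 2036 CPM in the other 4, and the Dpp4+ subset markers had a median change of 1.12 at 14D; Cxcl10 is higher in Dpp4+ fibroblasts than in endothelial cells, and their part was not tested. In mural cells 1 of 28 passed, beside 0.875% of all genes. It was Ifi27l2a, at 127, 143 and 295 CPM in the young libraries and 55.7, 107 and 277 CPM in the aged libraries (0.54 ± 0.26 at 3D and 1.76 ± 0.24 at 14D, adjusted p = 0.0122), also highest at 14D in both ages, and it did not pass when either 3D library was omitted. The mural count became 2 when the aged TN and 6 when the aged 14D library was omitted. The markers of the Dpp4+ subset, in which Ifi27l2a is high, had a median change of 0.86 at 14D in mural cells, and its part was not tested.

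By summed level of all 40 genes every endothelial library lay above every library of the other 4 classes. Without Ifitm3, Ifi27l2a and Ly6e the endothelial aged TN library (36.1 per 10000) lay below the Icam1+ young 3D one (36.5). In endothelial cells the 40 genes together took 83.4, 78.4 and 89.8 of every 10000 UMIs in young and 75.7, 83.2 and 74.3 in aged mice. In Icam1+ preadipocytes they took 52.5, 62 and 60.1 and 38.8, 53.8 and 51, and without the 3 most abundant members (Ifitm3, Ifi27l2a and Ly6e) 27.1, 36.5 and 31.6 and 18.9, 29.5 and 27. The aged TN library was the lowest on both scales and the young 3D library the highest. The means by age were 58.2 ± 5.0 (SD, n = 3) young and 47.9 ± 7.96 aged with all 40 genes. In Dpp4+ fibroblasts the sum was 51.5, 43.9 and 49.1 against 40.7, 45.4 and 46.9, and without those 3 genes 17.3, 15.4 and 16.5 against 15, 17.5 and 17.6, so the lower aged mean of 44.3 against 48.2 rested on the abundant genes. In Cd142+ fibroblasts it was 58.5, 54 and 61.1 against 48.4, 53.4 and 56 and in mural cells 41, 37.2 and 45.3 against 39.8, 43 and 42.3. Mural cells had the lowest mean at each age with all 40 genes, and Dpp4+ fibroblasts without those 3. No test was made on the sums.

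**Figure D5:**
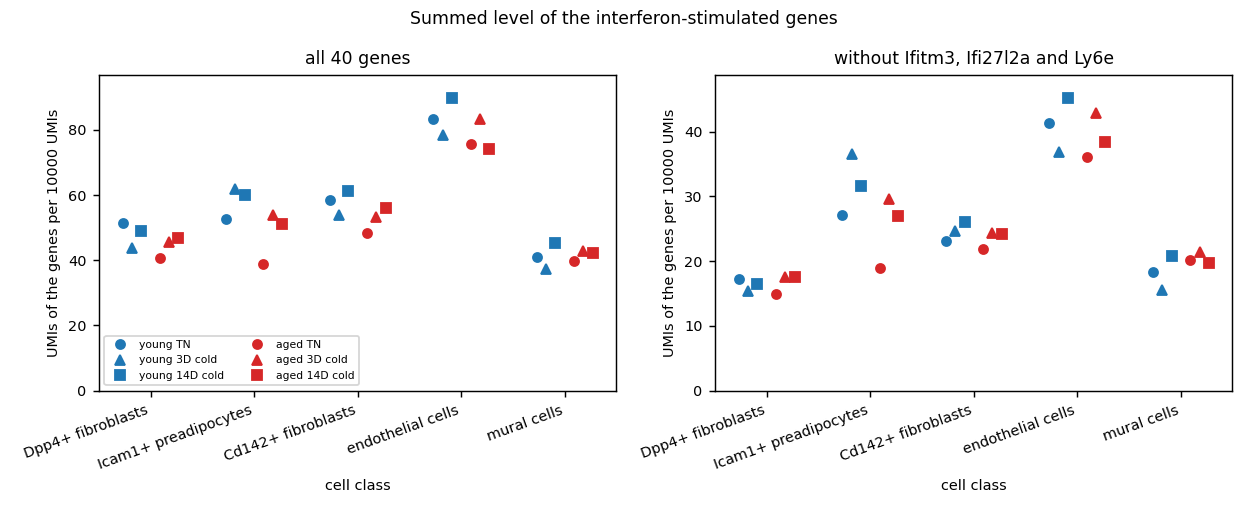
UMIs of the interferon-stimulated genes per 10000 UMIs of a class, all 40 genes (left) and without Ifitm3, Ifi27l2a and Ly6e (right); each point is 1 library, blue young and red aged, with circles for TN, triangles for 3D cold and squares for 14D cold. With all 40 genes endothelial cells lie highest, and in Icam1+ preadipocytes the aged TN point lies lowest at 38.8 and 18.9.

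Shares of cells with a UMI were taken after thinning each cell to 2000 UMIs, which 53037 cells reached; those left out were mostly of aged 14D cold. No class is known to lack these genes, so shares are set between classes at this equal depth per cell. Intervals are exact binomial 95% intervals and cover counting error only. In Icam1+ preadipocytes Ifi27l2a had a UMI in 35.3% (33.3 to 37.3), 23.5% (22 to 25.1) and 42.6% (40.7 to 44.4) of young cells and in 11.3% (10.2 to 12.5), 13.6% (12.4 to 14.9) and 25.3% (23.3 to 27.4) of aged cells. Its share in Dpp4+ fibroblasts was 60.3% to 82.7%. Cxcl9 had a UMI in 8.25% (7.14 to 9.47), 9.77% (8.72 to 10.9) and 11.1% (10.0 to 12.4) of young Icam1+ preadipocytes and in 2.64% (2.09 to 3.29), 6.20% (5.39 to 7.10) and 7.51% (6.33 to 8.83) of aged ones, beside 0.515% to 1.67% of Dpp4+ fibroblasts and 32.8% to 40.5% of endothelial cells. For both genes the CPM and the share of cells were lower in aged than in young preadipocytes at TN, 3D and 14D.

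Some members were detected in few cells and others in nearly all. Ifitm3 had a UMI in 91.9% to 94.9% of Icam1+ preadipocytes, Iigp1 in 28.5% to 48.7%, Isg15 in 13.4% to 20.9% and Ifit3 in 2.41% to 7.02%. Ubd had a UMI in 1.52% to 14.5% of endothelial cells and in 0% to 0.0777% of Dpp4+ fibroblasts, where 0 of 3304 young TN cells still allows a share of up to 0.0908%. In the endothelial class all 3 aged shares of Ubd (7.28%, 11.1% and 14.5%) exceeded the 3 young ones (4.58%, 1.52% and 4.88%).

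Some pairs of members were found together in the same cells. Over the 6 libraries, 14.5% to 30.1% of Icam1+ preadipocytes with an Ifit1 UMI also had one of Ifit3, against 2.06% to 4.74% of those without. In endothelial cells the shares were 12% to 32.1% and 1.86% to 3.49%. Of Icam1+ preadipocytes with Cxcl10, 7.44% to 25.1% had Cxcl9, against 2.21% to 7.03% of those without, and with Cxcl9, 56.4% to 71.9% had Iigp1, against 27.7% to 46.8%. The pairs share a library and, after thinning, the same depth, and the gap had 1 sign in all 6 libraries for the pairs and classes named here. Of 8 pairs read in 4 classes, 23 of 32 combinations had the second gene more often in cells with the first in every library. In endothelial cells Cxcl10 with Cxcl9 and Cxcl9 with Iigp1 did so in 5 of 6 libraries, and Ifi27l2a with Bst2 in 3. Gbp2 with Igtp did so in 4 of 6 libraries in endothelial cells and in 5 of 6 in Cd142+ fibroblasts. Rsad2 with Ubd did so in 4 of 6 in endothelial cells and in 0 to 2 in the fibroblast classes, where Ubd is scarce. Across the Icam1+ preadipocytes, the 1% of cells with most Cxcl9 held 47.5% of its UMIs.

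The rest of the pathway was read from lists of related genes. The interferons themselves were hardly seen: Ifnb1 had 12 UMIs and Ifng 22 over all cells of the 5 classes, 7 more Ifng UMIs lay in the immune cells, and Ifna1, Ifna2, Ifna4, Ifnk, Ifne, Ifnl2 and Ifnl3 had 0. The list also held the cytokines Il15 and Il18. Il18, a cytokine that drives interferon-gamma production, fell with age in Dpp4+ fibroblasts, from 128, 93.6 and 137 to 90.8, 74.7 and 86.8 CPM (-0.49 ± 0.07, adjusted p = 0.00115). No receptor gene of 5 tested (Ifnar1, Ifnar2, Ifngr1, Ifngr2, Il10rb) passed for age or temperature in any class. Ifngr1, a chain of the interferon-gamma receptor, was at 233 to 325 CPM in Icam1+ preadipocytes, and Ifnar1, of the type I receptor, at 26.2 to 29.4 CPM.

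Of the 11 signal carriers and brakes 10 were tested in each fibroblast class, and 2 passed for age in the Dpp4+ class (16.3% of all genes), 2 in the Icam1+ class (9.95%) and 1 in the Cd142+ class (6.88%). Stat3, which also carries other cytokine signals, rose with age in the 3 fibroblast classes: from 222, 320.1 and 246 to 285, 389.8 and 305 CPM in Icam1+ preadipocytes (0.32 ± 0.06, adjusted p = 0.021), by 0.27 ± 0.06 in Dpp4+ fibroblasts and by 0.35 ± 0.09 in Cd142+ fibroblasts. Trim24, a transcription cofactor, fell in Dpp4+ fibroblasts (-0.23 ± 0.06, adjusted p = 0.0326). Socs1, a brake on STAT signalling, fell in Icam1+ preadipocytes, from 217, 247 and 257 to 159, 212 and 179 CPM (-0.40 ± 0.07, adjusted p = 0.0211). Of 10 nucleic acid sensing genes tested in Dpp4+ fibroblasts, 1 passed, a smaller share than over all genes: Mb21d1 (the DNA sensor cGAS) rose (0.36 ± 0.10, adjusted p = 0.0321). None passed in another class.

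A further list held 51 other interferon-stimulated genes, 48 of them in the tables. In Icam1+ preadipocytes 5 fell and 1 rose with age of 46 tested (4.22% and 5.73% of all genes), with a median of -0.07. Trim25, which activates RIG-I, went from 57.4, 82 and 67.7 to 45.7, 60.03 and 55.3 CPM (-0.36 ± 0.06, adjusted p = 0.016), and Eif2ak2, the double-stranded RNA kinase PKR, from 25.2, 27.4 and 27.8 to 18, 22.8 and 22 (-0.36 ± 0.08, adjusted p = 0.0311). The others that fell were Slfn5, Lgals3bp and Lgals9, and Isg20 rose. In Dpp4+ fibroblasts 5 rose and 3 fell of 46, a share near the 16.3% of all genes. Those that rose were Nlrc5 (1.39), a factor that turns on class I antigen presentation, B2m (0.39), the light chain of class I molecules, Gbp4 (1.55), Gbp9 (0.66) and Ifitm1, the last with overlapping ages. For B2m the libraries were at 1082, 1065 and 1127 CPM in young and 1405, 1570.5 and 1314 CPM in aged cells, without overlap. In Cd142+ fibroblasts 2 rose (Samd9l and Isg20) and 1 fell (Lgals3bp) of 43, again near the share of all genes (6.88%), and none passed in endothelial or mural cells.

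In all, 22 of the 40 genes passed for neither age nor temperature in any class. They were Irf7, Irf9 and Stat2 of the signal genes; Dhx58, the LGP2 helicase, of the sensors; Ifit1, Oas1a, Rsad2, Bst2, Ifitm3 and Trim30a of the effectors; Isg15, Usp18, Ubd and Psmb9 of the modifiers; Iigp1, Irgm1 and Irgm2 of the GTPases; Cxcl9; and Ifi27, Ifi35, Ifi44 and Xaf1. Being uncalled does not show that they were level, and the share of all genes passing for neither was not counted. Oas1a was at most 5.07 CPM in every class and library, and Ifi44 was above the filter in endothelial cells alone. Trim30a and Oas1a share 18.3% and 24.7% of their 3′ windows of 60 bases with Trim30d and Oas1g, so their counts are uncertain.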

How the data were processed

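The authors sorted CD45-negative stromal vascular cells and sequenced 10x Genomics 3′ v3.1 libraries, aligned to mm10 with Cell Ranger (3.1.0 in the file headers). The deposited values were raw UMI counts per gene and barcode; R 4.1.1 and Seurat are named in the submitters' processing notes. Of 68103 barcodes, 67282 had over 200 genes, and 57326 were kept within 3 median absolute deviations in log10 UMIs and genes of their library and below that limit in mitochondrial share. No doublet caller was run. Fibroblasts carried at most 2 markers of each of the endothelial, mural, Schwann and immune lists. Cells of those classes carried at most 2 of each other such list. Their fibroblast markers were limited only by the absence of Pdgfra. Classes came from lists of 10 markers each: at least 3 detected (5 for fibroblasts), no Pdgfra in non-fibroblasts, and a lead of 0.1 between fibroblast subsets. Counts were summed per library and class and tested with edgeR 4.0.16 (R 4.3.3; quasi-likelihood, TMM, filterByExpr), model age plus temperature, or class plus library for pairs of classes. Benjamini-Hochberg adjustment ran over all genes tested, threshold 0.05. Errors of log2 fold changes are the absolute fold change over the root of the F statistic. CPM used TMM-scaled library sizes. Alternatives were DESeq2 1.42.0, other scaling, no filter, single terms, each library left out, Leiden clusters as classes, a stricter gate (lead 0.3), cells with an immune marker left out and cells thinned to 2000 UMIs. The tests were tried on simulated data. Named were all members past the threshold and the most abundant of a role. Genes of the fixed pathway lists were named in part, and their temperature calls were left out except for the receptors. Other genes with a large change were picked with their values in view. The members and lists were chosen with earlier results of these data known. Depth is the number of UMIs per library; intervals cover counting error only.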

Additional observations from a re-analysis of the deposited data

Results flagged for a closer look

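The 328 immune cells that the sort had left took no part in the comparisons, and the interferon-stimulated genes were counted in them. They took 43.4 of every 10000 UMIs there (8011 of 1845407 UMIs), where a count of 0 would allow up to 0.0163 per 10000. The level was highest at 3D in both ages, with 51.3 in young and 53.1 in aged cells, against 37.1 and 36.3 at TN and 39.6 and 45.7 at 14D. Without Ifitm3, Ifi27l2a and Ly6e it was 15.4, 16.7 and 14.7 in young cells at TN, 3D and 14D. In aged cells it was then 16.5, 16.4 and 14.9, so the aged peak at 3D rested on those abundant genes. With all members the level lies near that of Dpp4+ fibroblasts (40.7 to 51.5 per 10000). Free RNA from other cells was not measured, so how much came from the immune cells themselves was not tested. No library held more than 100 such cells, and no test was made.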

How the results depend on the processing

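No paired analysis was possible because the replicate numbers pair nothing: each age and temperature has 1 library. The age fit already compares ages within each temperature, and the class pairs within each library. Numbers of genes passing follow in the order Dpp4+, Icam1+, Cd142+, endothelial, mural. For age the counts were 4, 10, 4, 0 and 0. With DESeq2 they were 2, 9, 1, 0 and 0, without the filter on low counts 13, 17, 8, 7 and 3, without the temperature term 1, 0, 1, 0 and 0, with classes from clusters 4, 13, 9, 0 and 1, and with cells thinned to 2000 UMIs 5, 8, 2, 0 and 0. Over libraries left out they ranged 5 to 12, 3 to 13, 3 to 5, 0 to 6 and 0 to 5. For temperature the counts were 4, 10, 2, 0 and 1. With DESeq2 they were 2, 15, 2, 0 and 1, with RLE factors 4, 9, 2, 1 and 1, without the filter 15, 28, 13, 5 and 4, without the age term 0 throughout, and with clusters 4, 16, 12, 0 and 0. Over libraries left out they ranged 4 to 13, 0 to 28, 3 to 16, 0 to 6 and 0 to 6. The causes were not tested. The shares of all genes under these alternatives are not given here, so a changed count is not a result about the members. Cxcl10 in Cd142+ fibroblasts reversed with classes from clusters, from -0.42 to 0.068 (log2). Without the 3 most abundant members the aged minus young sum per 10000 UMIs moved from -3.81 to 0.303 in Dpp4+ and from -5.26 to -1.17 in Cd142+ fibroblasts. Without thinning, the aged minus young share of cells with Cxcl9 moved from -4.27 to -9.31 percentage points in Icam1+ preadipocytes and from -1.46 to -5.69 in endothelial cells, where aged cells are shallower. The mural sums held the fewest UMIs, and 12 of 40 genes were under the filter there.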

Other observations

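The 128 Schwann-like cells, told apart by glial markers, were also outside the comparisons. The 40 genes took 36.8, 53.8 and 40.2 of every 10000 UMIs in the young libraries at TN, 3D and 14D and 27.1, 37.8 and 32.0 in the aged ones, highest at 3D in both ages. They numbered 14 to 36 cells per library, so the values are a description.

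Expression of single members could be carried by few cells. In Dpp4+ fibroblasts thinned to 2000 UMIs, the 238 UMIs of Cxcl9 came from 154 of 19766 cells, with up to 16 in a cell, and in Icam1+ preadipocytes 1 cell held 81 of the 2908 Cxcl9 UMIs. The 1484 UMIs of Ifit1 in Dpp4+ fibroblasts came from 922 cells, with 48.5% of them in the 1% of cells that had most.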
